A study of Mus musculus with 12 samples.

Results

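The tripartite motif (Trim) family was followed in bone marrow-derived macrophages of 2 mouse strains given interleukin-4 (IL-4). Members were the non-control array probes that carry a scanner gene name of Trim and a digit and whose signal cleared the scanner's well-above-background test in each of the 2 replicates of 1 or more of the 6 groups. This rule kept 77 of the 99 Trim probes, and with them 43 of the 51 Trim gene names on the array; 27373 of all 41174 non-control probes passed the same filter. The macrophages came from C57BL6/J or Balb/cAnNCrl mice 8 to 12 weeks old and were grown with the macrophage growth factor CSF1. Each sample pooled the marrow of 2 males and 1 female. Cells received IL-4 at 10 ng/ml for 4 h or 18 h, or were mock treated for 18 h. Each strain and time had 2 replicates, so the 12 arrays fell into 6 groups of 2. The 4 h groups had no mock incubated for 4 h and were set against the 18 h mock.

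Most TRIM proteins share a RING finger, 1 or more B-boxes and a coiled coil, and most are ubiquitin ligases. Their C-terminal domain sets what they bind: a SPRY domain in the TRIM5-like antiviral members, a PHD finger and bromodomain in the chromatin cofactors, or NHL repeats in a group that binds RNA and cargo proteins. Many SPRY members are induced by interferon in macrophages and act on viruses or on the sensors that detect them. IL-4, the cytokine of alternative macrophage activation, acts through STAT6.

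Of the 77 members, 63 were well above background on all 12 arrays and the fewest arrays for any member was 3. Just inside the rule were 1 probe each of Trim7, Trim62 and Trim66, which passed through 1 group alone with 4, 5 and 3 arrays. Just outside were 1 probe of Trim63, 2 of Trim6 and 1 of Trim66, with 3 to 5 arrays but no complete group. Another 12 Trim probes were well above background on no array. The genes without a kept probe were Trim10, Trim15, Trim31, Trim42, Trim50, Trim52, Trim61 and Trim63. By number of probes, 17 genes had 1, 19 had 2, 6 had 3 and 1, Trim39, had 4. The scanner names Trim12, Trim30 and Trim34 stand for the genes now called Trim12a, Trim30a and Trim34a.

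Levels are given as log2 of the processed signal minus the 75th percentile of the array, so 0 is that percentile. A level holds for 1 probe and is not compared with another probe's. A probe was called when its adjusted p in limma, with Benjamini-Hochberg adjustment over all 27373 probes, was below 0.05. The arrays had between 54.86% and 69.69% of their spots well above background, and replicates of a group correlated at 0.9729 to 0.9887 over the kept probes. All 6 macrophage markers on the array, among them Csf1r and Adgre1, were well above background on all 12 arrays. Their summed linear level, with 1 at the array's 75th percentile, was 311.9 to 454.5. The sums were 0.1745 to 0.2711 for T cell, 0.3596 to 0.6162 for erythroid and 0.3262 to 0.5876 for stromal markers. Dendritic cell markers summed to 0.2412 to 0.7975, with 0.2888 in C57BL6 mock and 0.489 in Balb/c mock. Of these, 3 of 5 genes were well above background on all 12 arrays. Lists differ in probes and numbers of genes, so the sums do not give cell shares. Neutrophil markers summed to 2.979 in C57BL6 mock and 0.7841 in Balb/c mock, with 4 of 6 genes well above background on all 12 arrays, and B cell markers to 2.794 and 1.406, with 3 of 5. The part of these marker sets in the strain differences of the Trim genes was not tested. In bulk RNA, fewer cells of a type and less RNA per cell cannot be told apart.

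After 18 h of IL-4, Trim30a, Trim21 and Trim34a, all on chromosome 7, were lower in both strains. In C57BL6 cells 7 of the 77 Trim probes were called lower and 0 higher, where 4.24% of all probes were called, 2.37% lower and 1.87% higher. In Balb/c cells 8 were lower and 0 higher, against 2.33% and 1.32% of all probes (3.65% in either direction). Of these, 6 in C57BL6 and 7 in Balb/c belong to the chromosome 7 genes Trim30a, Trim21, Trim34a, Trim12a (called in C57BL6) and Trim6 (called in Balb/c). Chromosome 7 holds 14 of the 77 member probes, for 9 genes; its members Trim3, Trim28, Trim66 and Trim68 were not called at 18 h in either strain. Between mock and 18 h the summed B cell markers went from 2.794 to 1.375 in C57BL6 and from 1.406 to 1.04 in Balb/c, and the neutrophil markers from 2.979 to 2.21 and from 0.7841 to 0.4811; their part in the 18 h changes was not tested. The median log2 change over the members was -0.23 in C57BL6 and -0.22 in Balb/c, beside -0.02 and 0.00 over all probes. In RefSeq's order along chromosome 7 (GRCm38.p6), 10 Trim genes from Trim6 to Trim30d stand in a run in which only 1 other protein-coding gene intervenes: Trim6, Trim34a, Trim5, Trim12a, Trim34b, Trim12c, Trim30b, Trim30c, Trim30a and Trim30d. Trim21 and Trim68 lie outside that run on the same chromosome. Whether probes of genes in the run read each other's RNA was not tested, so their calls are not shown to be independent.

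**Figure D1:**
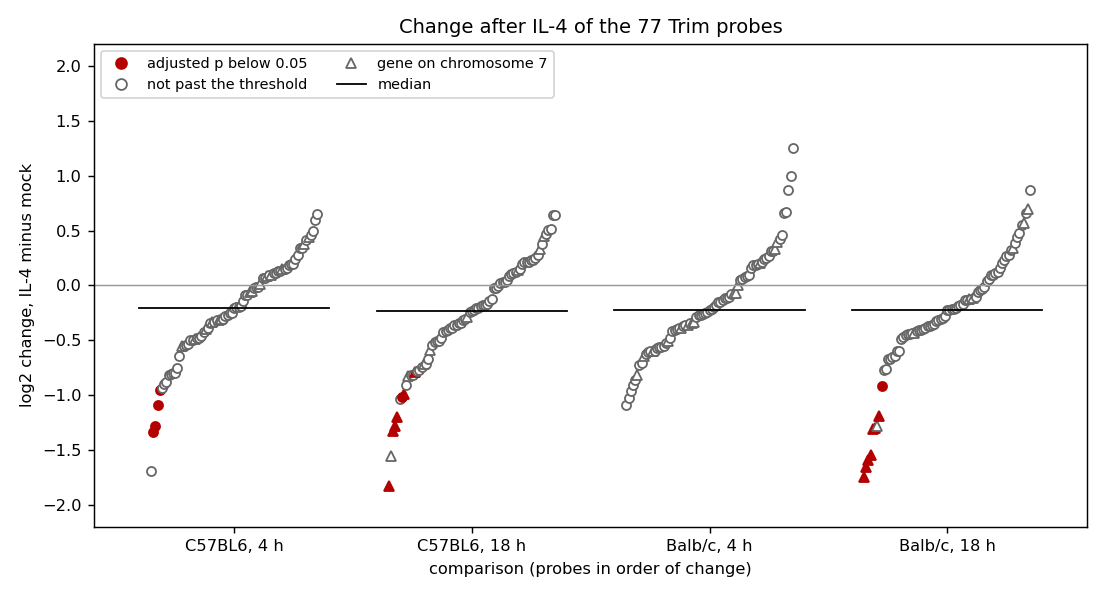
Log2 change (IL-4 minus mock) of each of the 77 Trim probes in the 4 IL-4 comparisons, in order of size; filled symbols passed adjusted p below 0.05, triangles are genes on chromosome 7, and the line is the median. No Trim probe rose past the threshold, and 6 of 7 called probes in C57BL6 and 7 of 8 in Balb/c at 18 h are chromosome 7 genes.

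Trim30a limits NF-κB activation downstream of Toll-like receptors. On its probe A_51_P275454 the levels in C57BL6 cells were 3.86 and 3.83 in mock, 3.30 and 3.29 at 4 h, and 1.95 and 2.09 at 18 h. In Balb/c cells they were 3.49 and 3.61 in mock, 3.12 and 3.31 at 4 h, and 1.80 and 2.12 at 18 h. Both 18 h replicates lay below every other array of their strain. Trim30a fell by 1.82 ± 0.16 (SE) on the log2 scale at 18 h in C57BL6 (3.54-fold, adjusted p = 0.00133 by limma) and by 1.59 ± 0.16 in Balb/c (3.01-fold, adjusted p = 0.00231). The other Trim30a probe, A_52_P442567, fell by 1.28 ± 0.22 in C57BL6 and by 1.66 ± 0.22 in Balb/c (limma adjusted p = 0.019 and 0.00602).

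Trim21 is the cytosolic receptor that directs antibody-coated virus to the proteasome. Its levels in C57BL6 cells were 1.62 and 1.70 in mock, 1.22 and 1.11 at 4 h, and 0.31 and 0.36 at 18 h. In Balb/c cells they were 1.12 and 1.28 in mock, 0.86 and 0.82 at 4 h, and -0.13 and -0.10 at 18 h. The 3 groups of each strain did not overlap, with mock highest and 18 h lowest. The fall at 18 h was 2.51-fold in C57BL6 (adjusted p = 0.00234 by limma) and 2.48-fold in Balb/c (adjusted p = 0.00244).

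Trim34a is a relative of the retroviral restriction factor TRIM5. Its probe A_52_P278853 gave 2.08 and 2.04 in C57BL6 mock, 2.01 and 2.02 at 4 h, and 1.08 and 1.06 at 18 h. The Balb/c arrays gave -0.18 and -0.21 in mock, -0.99 and -0.59 at 4 h, and -2.10 and -1.79 at 18 h. Levels at 18 h were below mock and 4 h in both strains, and all 6 Balb/c arrays were below all 6 C57BL6 arrays. Trim34a fell by 0.99 ± 0.18 at 18 h in C57BL6 (adjusted p = 0.0207 by limma) and by 1.75 ± 0.18 in Balb/c (adjusted p = 0.00226). A further probe, A_52_P367034, fell by 0.79 in C57BL6 and by 1.55 in Balb/c, and A_52_P157316 fell by 1.30 in Balb/c and had a change of -0.59 in C57BL6, where it was not called.

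Trim12a is one of the mouse counterparts of TRIM5. Its probe A_52_P267391 read 3.86 and 3.94 in C57BL6 mock, 3.58 and 3.61 at 4 h, and 2.69 and 2.71 at 18 h. The 18 h pair was the lowest, and the fall from mock was 2.30-fold (adjusted p = 0.0483 by limma). This call was lost in most fits that left out 1 array, where the log2 change was -1.24 to -1.16. In Balb/c cells this probe was not well above background on any of the 6 arrays, so no change with IL-4 can be given for that strain. The other Trim12a probe, A_52_P634829, changed by -0.82 at 18 h in C57BL6 (adjusted p = 0.303, or 0.0121 with the replicate block) and was not well above background at 18 h in Balb/c, at least 1.66-fold below mock (adjusted p = 0.133, or 0.00336 with the block).

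Trim6 makes unanchored ubiquitin chains that activate the kinase IKKε downstream of the interferon receptor. Its probe read -2.56 and -2.38 in C57BL6 mock, -2.86 and -2.75 at 4 h, and -3.16 and -3.21 at 18 h. Balb/c values were -3.78 and -4.12 in mock, -4.85 and -4.68 at 4 h, and -4.95 and -5.32 at 18 h. The levels stepped down with time in each strain without overlap between mock and 18 h. The fall at 18 h passed the threshold in Balb/c (2.28-fold, adjusted p = 0.0128 by limma; 1 of the 2 arrays at 18 h was well above background), while the C57BL6 change was -0.71 and was called only with the replicate number as a block (adjusted p = 0.0328). Trim68, the remaining gene of this list with a kept probe, changed by -0.29 in C57BL6 and by -0.43 in Balb/c at 18 h, neither of them called. Of the 10 probes for these 6 chromosome 7 genes, limma called 6 lower in C57BL6 and 7 in Balb/c, and 0 higher. Of all probes, 2.37% and 2.33% were called lower. The medians over the 10 probes were -0.91 and -1.31, and the Balb/c median includes the Trim12a probe that was below background there.

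**Figure D2:**
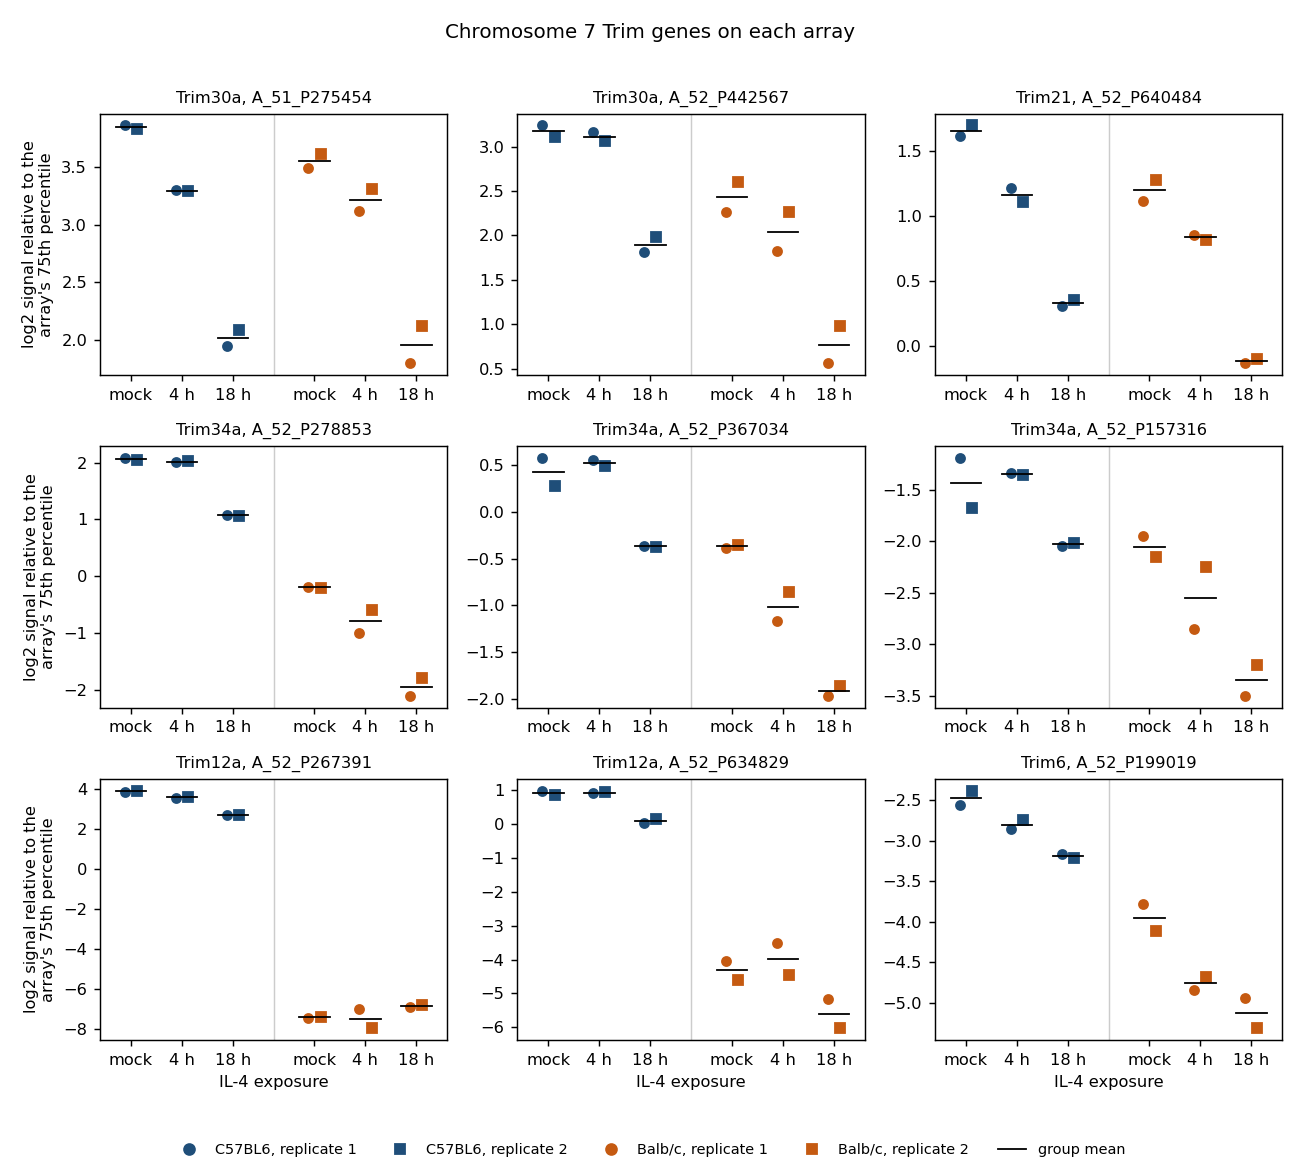
Level on each array (log2 signal relative to the array's 75th percentile) of 9 probes for Trim30a, Trim21, Trim34a, Trim12a and Trim6, by strain and IL-4 exposure; circles and squares are replicates 1 and 2 and the line is the mean of the 2. The 18 h pair is the lowest of its strain in both Trim30a probes and in Trim21, and A_52_P267391 for Trim12a is at 3.86 and 3.94 in C57BL6 mock and at -7.46 and -7.40 in Balb/c mock.

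Outside chromosome 7, a probe for Trim24 was also lower at 18 h in C57BL6, and Trim56 was lower in Balb/c. Trim56 is a ubiquitin ligase that restricts RNA viruses and raises interferon output. It read -0.23 and -0.15 in Balb/c mock, -0.52 and -0.65 at 4 h, and -1.01 and -1.21 at 18 h, and 0.78 and 1.02, 0.51 and 0.74, and 0.28 and 0.48 in the same C57BL6 groups. The Balb/c groups did not overlap, and the C57BL6 mock and 18 h groups did not either. The fall was 1.89-fold in Balb/c (adjusted p = 0.0242 by limma), and the change in C57BL6 was -0.52 (adjusted p = 0.154, or 0.0249 with the replicate block).

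At 18 h the replicate number as a block within strain gave 22 Trim calls in C57BL6 and 18 in Balb/c. All 7 and all 8 above were among them, and 17.3% and 14.2% of all probes were called. Of all probes in C57BL6, 2.95% were called after median scaling, 1.55% without the filter and 0.552% after normexp. In Balb/c normexp left 0.632% of all probes called. In C57BL6 the count of 7 was 2 without either mock or either 18 h replicate, 4 without either 4 h replicate or either Balb/c 18 h replicate, 4 after median scaling, 3 without the filter and 0 after normexp or without the 4 arrays of slide 2; in Balb/c the count of 8 was 5 without mock replicate 1 or 18 h replicate 2, 1 after normexp and 0 without slide 2.

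The promoters of these genes were searched for the letters of the interferon-stimulated response element (ISRE), the site bound by interferon-activated transcription factors. The motif searched was GAAA, any 2 bases and GAAA again, on both strands of the RefSeq window (GRCm38.p6) from 250 bases before to 50 after each annotated start. It was present for 3.99% of the 27025 genes with a window, or 3.44% of windows. Of the 43 member genes 31 had a window, and 6 held the motif: Trim2, Trim12a, Trim21, Trim26, Trim30a and Trim34a. All 7 genes called lower at 18 h in either strain had a window, and 4 held it: Trim12a, Trim21, Trim30a and Trim34a. Among the other member genes with a window, 2 of 24 held it. Trim12a, Trim30a and Trim34a are related neighbours in the run described above. The 4 genes are therefore not independent, and these counts are no test of enrichment. Trim6, Trim24 and Trim56 had no match in the window. No result is given for Trim5, Trim34b, Trim30b and Trim30c of the run, and the stretch of Trim2 is not shown. The 30 bases around the matches are shown for the 4 genes that fell at 18 h, for their chromosome 7 neighbours Trim30d and Trim12c, and for Trim26, which was lower at 18 h than at 4 h; capitals mark the match, and each line is written 5′ to 3′ on the strand that reads GAAA.
Trim30a, first window, chr7:104465210-104465239, plus strand: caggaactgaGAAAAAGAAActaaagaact
Trim30a, second window, chr7:104446104-104446133, plus strand: caggaactgaGAAAAAGAAActaaaaacaa
Trim30d, chr7:104507871-104507900, plus strand: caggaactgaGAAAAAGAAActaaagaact
Trim12a, chr7:104315466-104315495, plus strand: ctctggaaatGAAACAGAAAccacaactct
Trim12c, chr7:104353359-104353388, plus strand: agctggaaatGAAACAGAAAccacaactct
Trim34a, chr7:104244457-104244486, minus strand: gcagagaaaaGAAACTGAAActccaaacca
Trim21, chr7:102565447-102565476, minus strand: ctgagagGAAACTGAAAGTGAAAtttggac
Trim26, chr17:36836979-36837008, minus strand: ggcccgaGAAAAGGAAAGTGAAAtcggaag
Trim21 and Trim26 each held 2 overlapping matches. The stretches of Trim30a (first window) and Trim30d are the same 30 bases. The match began at base 11 after the start in Trim12a and Trim34a, at base 14 in Trim21, at base -36 in the first Trim30a window and at base -160 in Trim26. The STAT6 site, searched as TTC and GAA with any 4 bases between them and present for 8.01% of all genes, was found for 5 of the 31 member genes (Trim39, Trim46, Trim60, Trim66 and Trim68) and for 0 of the 7 called lower at 18 h. A match describes letters in the window and is not evidence of binding.

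At 4 h, Trim16 and Trim24 were lower in C57BL6 cells, and a Trim24 probe was among those also called at 18 h. In C57BL6 cells 4 Trim probes were called lower and 0 higher, where 3.21% of all probes were called, 1.49% lower and 1.72% higher. They were 2 probes each of Trim16, a RING-less member that takes part in autophagy of damaged lysosomes, and of Trim24, a chromatin cofactor of nuclear receptors. In Balb/c cells 0 Trim probes passed, where 1.26% of all probes did (0.402% lower and 0.862% higher); 18 Trim probes had an unadjusted p below 0.05, as had 2806 of all 27373 probes. Of the 10 probes of the chromosome 7 list limma called 0 at 4 h in either strain (2 and 4 at an unadjusted p below 0.05), with medians of -0.18 in C57BL6 and -0.37 in Balb/c.

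The Trim16 probe A_52_P212650 read -0.18 and -0.09 in C57BL6 mock, -1.47 and -1.38 at 4 h, and -1.22 and -1.12 at 18 h. The Balb/c readings were -0.39 and -0.95 in mock, -1.51 and -1.74 at 4 h, and -0.74 and -1.32 at 18 h. The 4 h pair was the lowest in each strain, and Balb/c mock and 18 h overlapped. Trim16 fell by 1.28 ± 0.24 at 4 h in C57BL6 (2.44-fold, adjusted p = 0.0318 by limma), and A_51_P502580 fell by 1.09 ± 0.20. The third probe, A_52_P325477, changed by -0.80 and was not called (adjusted p = 0.0987). In Balb/c the 3 Trim16 probes changed by -0.96 to -1.09 at 4 h with adjusted p of 0.0567 to 0.137, and each had all its 4 h values below its mock values. At 18 h their changes were -0.48 to -1.04 in C57BL6 and -0.36 to -0.49 in Balb/c, none of them called; with the block A_51_P502580 and A_52_P212650 were called in C57BL6 (adjusted p = 0.00854 and 0.00473).

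Trim24 on A_52_P652293 read -2.45 and -2.01 in C57BL6 mock, -3.72 and -3.41 at 4 h, and -3.36 and -3.13 at 18 h. Balb/c cells gave -2.34 and -2.06 in mock, -2.81 and -2.64 at 4 h, and -2.96 and -2.64 at 18 h. Mock values were above both IL-4 groups in each strain. Trim24 fell by 1.33 ± 0.22 at 4 h (2.52-fold, adjusted p = 0.0191 by limma) and by 1.02 ± 0.22 at 18 h (adjusted p = 0.0442) in C57BL6, and changed by -0.53 and -0.60 in Balb/c, where neither passed without the replicate block (adjusted p = 0.0377 and 0.0159 with it). The other Trim24 probe, A_51_P152845, fell by 0.96 at 4 h in C57BL6 (adjusted p = 0.0486) and changed by -0.81 at 18 h (adjusted p = 0.0729, or 0.00643 with the block). Its call at 4 h held in none of the 12 fits that omitted 1 array (adjusted p of 0.0575 to 0.296), and neither did the 18 h call of A_52_P652293 (0.0561 to 0.26).

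**Figure D3:**
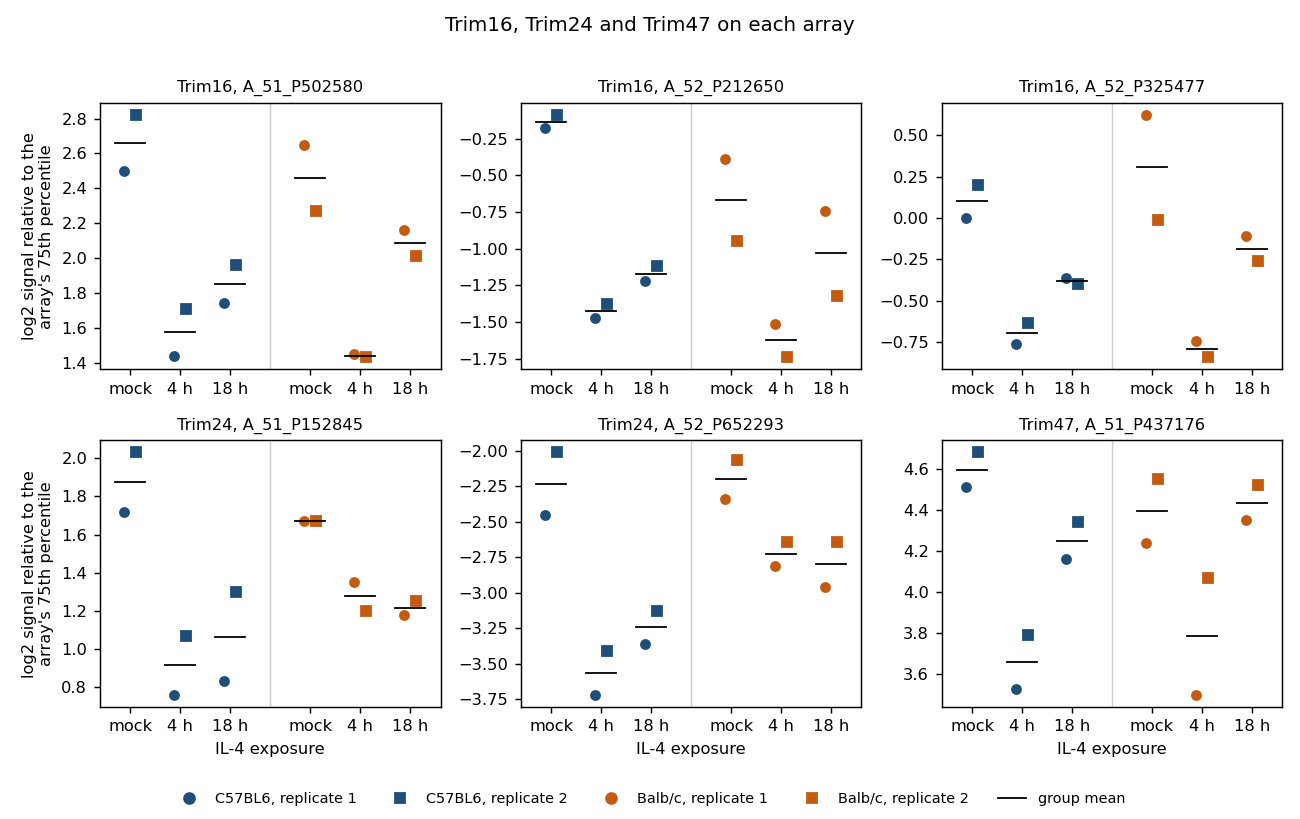
Level on each array (log2 signal relative to the array's 75th percentile) of 3 probes for Trim16, 2 for Trim24 and 1 for Trim47, by strain and IL-4 exposure; circles and squares are replicates 1 and 2 and the line is their mean. The 4 h pair is below the mock pair in every panel, with Trim24 A_52_P652293 at -3.72 and -3.41 against -2.45 and -2.01 in C57BL6.

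Trim47, another SPRY member, also had its lowest values at 4 h but did not pass the test. It read 4.51 and 4.68 in C57BL6 mock, 3.53 and 3.79 at 4 h, and 4.16 and 4.34 at 18 h, with a change of -0.93 at 4 h (adjusted p = 0.0727 by limma). With the replicate block it was called at 4 h in both strains (adjusted p = 0.00833 in C57BL6 and 0.0414 in Balb/c), as were all 3 Trim16 probes. The block raised the called Trim probes at 4 h to 22 in C57BL6, 18 of them lower. In Balb/c it raised them to 11, all 11 lower. The share of all probes called rose to 16.5% and 6.86%. In C57BL6 that share was 1.99% after median scaling, 3.36% with 1 probe per gene, 0.095% after normexp and 0.991% without the filter. The 4 calls in C57BL6 fell to 0 without either 4 h replicate or mock replicate 2, to 1 without mock replicate 1 or either 18 h replicate, to 1 after median scaling, to 2 with 1 probe per gene, and to 0 after normexp, without the filter or without slide 2.

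Between 4 h and 18 h of IL-4, taken as the mean of the strains, 7 Trim probes were lower and 1 was higher at 18 h, where 2.25% and 1.32% of all probes were (3.57% in either direction). The lower probes were both for Trim30a (changes of -1.26 and -1.24), 2 for Trim34a (-1.05 and -0.90), and 1 each for Trim12a (-1.23), Trim21 (-0.90) and Trim26 (-0.47). Trim12a A_52_P634829 was not well above background at 18 h in Balb/c. The fitted -1.23 therefore rests in part on signals that failed that test and is not a bound. This comparison shares its 18 h arrays with the comparisons against mock.

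Trim26, which targets nuclear IRF3 for degradation, moved little but with tight replicates. On A_52_P353031 it read 3.51 and 3.63 in C57BL6 mock, 3.47 and 3.48 at 4 h, and 3.00 and 3.13 at 18 h. In Balb/c it read 3.70 and 3.69 in mock, 3.93 and 3.90 at 4 h, and 3.35 and 3.43 at 18 h. The 18 h pair was the lowest in both strains, 1.38-fold below 4 h (adjusted p = 0.0378 by limma), but leaving out any of the 12 arrays ended this call (adjusted p of 0.053 to 0.152). The other Trim26 probes had differences of -0.36 and -0.51, called only with the replicate block (adjusted p = 0.0228 and 0.0319).

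Trim37, a ubiquitin ligase of peroxisomes and centrosomes, was the 1 Trim gene called higher with time. Its probe A_52_P252127 read 0.07 and 0.15 in C57BL6 mock, -0.23 and -0.23 at 4 h, and 0.45 and 0.52 at 18 h. In Balb/c it read -0.62 and -0.09 in mock, -0.69 and -0.33 at 4 h, and 0.43 and 0.59 at 18 h. All 18 h values were above all others, and 18 h was 1.82-fold above 4 h (adjusted p = 0.0183 by limma). The call was not kept in every fit that left out 1 array, where the log2 change was 0.78 to 0.96. The other 2 Trim37 probes had differences of 0.65 and -0.02, of which the first was called only with the replicate block (adjusted p = 0.0148). Between the times 1.22% of all probes were called without the filter, 3.72% with 1 probe per gene and 0.581% after normexp. The count of 8 probes became 23 with the replicate block, 10 higher and 13 lower, under which 16.3% of all probes were called. It became 5 without Balb/c 18 h replicate 2 or any of the 4 C57BL6 IL-4 arrays, 5 without the filter or with 1 probe per gene, and 0 after normexp or without slide 2.

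Of 25 probes for 12 genes of antiviral sensing and interferon signalling, limma called 0 at 4 h in C57BL6 or Balb/c or at 18 h in C57BL6 (8, 5 and 2 at an unadjusted p below 0.05), and Trim56 alone was called at 18 h in Balb/c. At 18 h the median change over this list was -0.13 in C57BL6 and -0.31 in Balb/c. Trim25, which ubiquitinates the RNA sensor RIG-I, changed on A_51_P212854 by -0.39 and -0.13 at 4 h and 18 h in C57BL6 and by -0.70 and -0.60 in Balb/c. Trim14, an adaptor of MAVS, changed by 0.42 and -0.31 in C57BL6 and by -0.41 and -0.77 in Balb/c. Trim13, an endoplasmic reticulum ligase, changed by -0.82 and -0.34 in C57BL6 and by -0.60 and -0.41 in Balb/c. Trim8, a partner of SOCS1, changed by -0.55 and -0.36 in C57BL6 and by -0.41 and -0.21 in Balb/c. Trim11 changed by 0.46 and 0.15 in C57BL6 and by 0.31 and 0.06 in Balb/c, and Trim35 by -0.43 and -0.17 and by -0.36 and -0.22. The brightest probes of Trim65, Trim23, Trim27 and Trim32 changed by -0.42 to 0.21 in the 4 comparisons. None of these values passed the threshold without the replicate block. With it, Trim8, Trim11 and Trim13 were called at 4 h and Trim8 and Trim26 at 18 h in C57BL6, and Trim13 and Trim25 at 4 h and Trim14, Trim23 and Trim25 at 18 h in Balb/c (adjusted p of 0.0125 to 0.0473). A further probe of Trim27 was also called at both times in C57BL6, and further probes of Trim11 at 4 h in C57BL6 and of Trim13 at 4 h in both strains and at 18 h in Balb/c.

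Among the chromatin cofactors, Trim28, the corepressor of KRAB zinc finger proteins, changed by 0.20 to 0.38 in the 4 IL-4 comparisons. Trim33, which binds SMAD proteins, changed by -0.47 and -0.51 in C57BL6 and by 0.06 and -0.06 in Balb/c. Trim66 was well above background on 3 arrays only. None of these was called, so the called members of this list were the Trim24 probes; with the block Trim33 was called in C57BL6 at 4 h and 18 h (adjusted p = 0.0263 and 0.0198). The 6 probes of the NHL genes Trim2, Trim3 and Trim32 and the 7 probes of the cytoskeleton genes Trim9, Trim36, Trim46, Trim54, Trim55 and Trim67 gave 0 limma calls with IL-4, with 0 to 2 and 0 to 1 probes at an unadjusted p below 0.05. Trim2 read -0.57 and 0.14 in C57BL6 mock, -0.98 and -0.73 at 4 h, and -0.56 and -0.33 at 18 h, and in Balb/c -0.46 and -0.55, -1.13 and -1.03, and -0.19 and -0.29. Its 4 h values were the lowest in both strains, with changes of -0.64 and -0.57 that were not called (with the block, adjusted p = 0.037 in C57BL6). Trim3, a partner of motor proteins in neurons, changed by -0.13 to 0.15 in the 4 comparisons. Trim36 changed by -0.01 and 0.64 at 4 h and 18 h in C57BL6 and by 0.05 and 0.55 in Balb/c, and the brightest probes of Trim46, Trim54, Trim55 and Trim67 by -0.91 to 0.28, none of them called; with the block Trim36 was called at 18 h in C57BL6 (adjusted p = 0.045). Trim9 A_52_P580150 read -5.29 and -5.85 in Balb/c mock, not well above background on either array, and -4.66 and -3.97 at 4 h. Its change was not called (adjusted p = 0.685 by limma). The other Trim9 probe, A_52_P625640, changed by -0.25 in that comparison and was not called. The erythroid genes Trim10 and Trim58 had no member probe. Outside all lists, 26 probes of 13 genes included the 2 Trim16 probes called at 4 h and Trim37 called between the times.

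Mock cells of the strains differed in 9 Trim probes. Balb/c was lower for 8 and higher for 1, where 5.68% of all probes differed, 2.86% lower and 2.82% higher. The lower ones were for Trim12a, Trim34a and Trim6 on chromosome 7 and for Trim25, Trim36 and Trim56, and the higher one was for Trim68, on chromosome 7 as well. The median over the 77 members was -0.16, beside -0.07 over all probes. No slide held mock arrays of both strains, so no value within a slide can be given. With slide as a block 7 Trim probes were called, where 2.88% of all probes were, against 5.68% without it.

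Trim12a had the widest strain difference among the members. Its probe A_52_P267391 read 3.86 and 3.94 in C57BL6 mock, against -7.46 and -7.40 in Balb/c mock, where neither array was well above background. The difference was at least 696.3-fold (adjusted p = 2.19e-06 by limma), computed against the dimmest signals that counted as well above background on the Balb/c arrays. Probe A_52_P634829 read 0.98 and 0.84 in C57BL6 mock and -4.03 and -4.60 in Balb/c mock, 37.3-fold lower (adjusted p = 0.00018). The strains' own sequences under the probes were not used here, and their part in these differences was not tested.

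Trim25 differed between the strains on 1 of its 2 probes. A_52_P654161 read 2.55 and 2.93 in C57BL6 mock and -0.98 and -0.30 in Balb/c mock, 10.5-fold lower (adjusted p = 0.00137 by limma), and all 6 Balb/c arrays lay below all 6 C57BL6 arrays. A_51_P212854 read 4.75 and 4.70 in C57BL6 mock and 5.35 and 5.08 in Balb/c mock, a change of 0.49 that was not called (adjusted p = 0.139).

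Trim34a disagreed in size among its probes. The Balb/c minus C57BL6 difference in mock was -2.26 ± 0.18 on A_52_P278853 (4.79-fold, adjusted p = 0.000292 by limma), -0.79 ± 0.17 on A_52_P367034 (adjusted p = 0.0319) and -0.61 on A_52_P157316, where it was not called. Trim6 was 2.79-fold lower in Balb/c mock (adjusted p = 0.00337) and Trim56 2.13-fold lower (adjusted p = 0.00839). Trim68 read -0.39 and -0.03 in C57BL6 mock and 0.78 and 0.53 in Balb/c mock, 1.82-fold higher (adjusted p = 0.0259). Trim36, a microtubule-associated ligase, read -0.96 and -0.55 in C57BL6 mock and -2.30 and -2.22 in Balb/c mock, 2.83-fold lower (adjusted p = 0.0125).

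**Figure D4:**
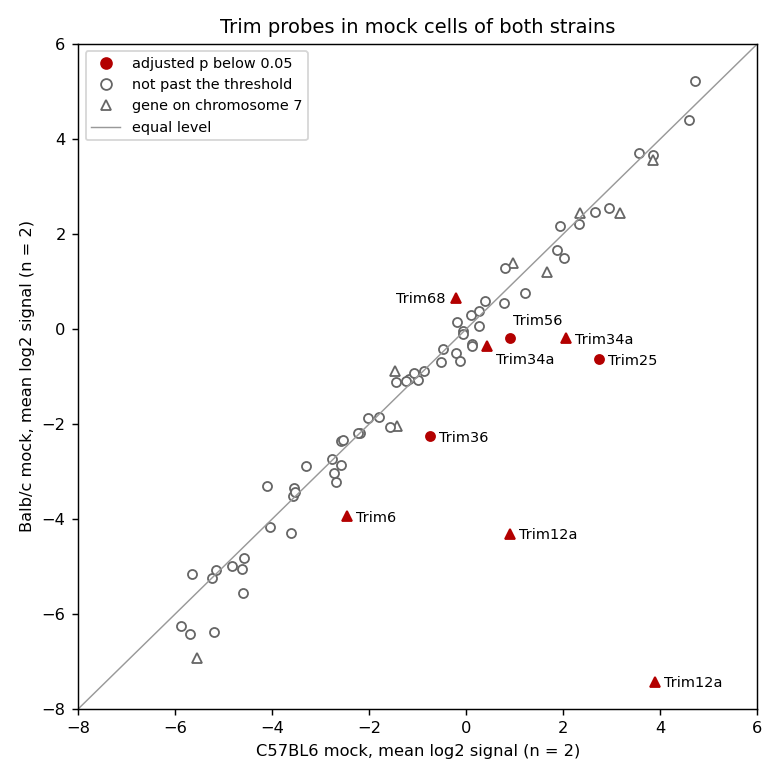
Mean level (log2 signal relative to the array's 75th percentile, n = 2) of each of the 77 Trim probes in C57BL6 mock (horizontal) and Balb/c mock (vertical); filled symbols passed adjusted p below 0.05, triangles are genes on chromosome 7, and the line marks equal levels. The 2 Trim12a probes lie farthest below the line, at -7.43 and -4.32 in Balb/c mock, and Trim68 is the 1 filled symbol above it.

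The replicate block is set within strain, and replicates are not paired between the strains. For this comparison it takes the spread between replicates out of the error, which can make its p-values too small. After normexp 0.113% of all probes were called between the strains. The strain count of 9 became 21 with the replicate block, 16 lower and 5 higher, under which 22.1% of all probes were called. It became 5 without Balb/c mock replicate 1, 4 without slide 2, and 1, the Trim25 probe, after normexp. The 5 probes called in every fit that left out 1 array were both of Trim12a, Trim25 A_52_P654161, Trim34a A_52_P278853 and Trim6.

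The difference between the strains in their IL-4 change was tested directly. At 4 h 0 of 77 Trim probes differed, with 5 at an unadjusted p below 0.05 (702 of all probes), and at 18 h 0 differed, with 8 (1462 of all probes); over all probes 0% were called at either time. With the replicate block 0 were called as well. A call in 1 strain alone, such as those of Trim56, Trim6 or Trim24, is therefore not shown to differ between the strains.

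Genes of the family that carry another scanner name were outside the rule and are given for comparison. Of 10 such genes listed, 8 had kept probes, 12 in all: Trim30b, Trim30d, Trim12c, Pml, Mefv, Mid1, Mid2 and Rnf207. At 18 h 2 of the 12 were lower in C57BL6 and 3 in Balb/c, and 0 were higher. Trim30b, next to Trim30c in the chromosome 7 run, read -0.30 and 0.13 in C57BL6 mock, -1.61 and -1.64 at 4 h, and -4.42 and -3.88 at 18 h. It fell by 4.07 ± 0.52 at 18 h (adjusted p = 0.00522 by limma), a larger fitted change than that of any of the 77 members in that comparison. In Balb/c it was not well above background on any of the 6 arrays, and at least 44.07-fold lower in mock (adjusted p = 0.000269 by limma).

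Trim30d, on A_52_P199633, read 2.72 and 2.70 in C57BL6 mock, 2.63 and 2.62 at 4 h, and 1.47 and 1.53 at 18 h. In Balb/c it read 1.01 and 1.22 in mock, 0.39 and 0.93 at 4 h, and -0.76 and -0.55 at 18 h. The 18 h pair was the lowest in each strain, with a fall of 2.31-fold in C57BL6 (adjusted p = 0.0144 by limma) and 3.40-fold in Balb/c (adjusted p = 0.00293). Its other probe fell by 3.28 in Balb/c and changed by -1.71 in C57BL6 (adjusted p = 0.073). Both Trim30d probes were lower in Balb/c mock, by 1.60 and 1.94 on the log2 scale. Values for these closely related neighbours, and for the members Trim30a, Trim34a and Trim12a of the same run, are uncertain. Whether their probes read each other's RNA was not tested.

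Trim12c changed by -0.89 in C57BL6 and -1.09 in Balb/c at 18 h, neither called. Pml, the organizer of PML nuclear bodies, fell by 0.95 on A_52_P121087 in Balb/c at 18 h (adjusted p = 0.0201 by limma). Mefv, which encodes pyrin, read 2.64 and 2.61 in C57BL6 mock and 1.44 and 0.53 at 18 h. That change was -1.64 without overlap of the groups and was not called (adjusted p = 0.55 by limma). The Balb/c replicates were apart in mock (1.40 and -1.82), at 4 h (1.21 and -1.72) and at 18 h (0.03 and -1.54). The spread is shared over the 6 groups, and none of the Mefv changes passed.

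**Figure D5:**
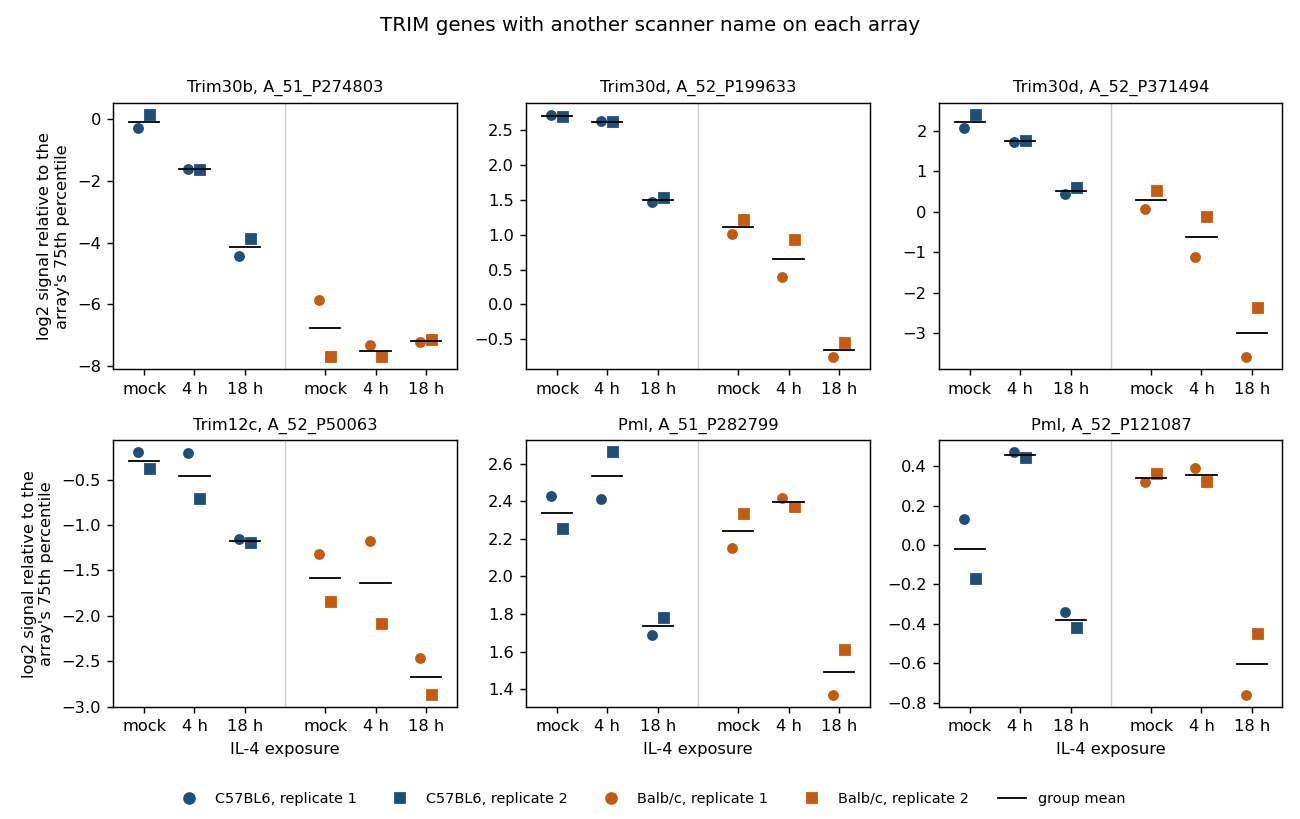
Level on each array (log2 signal relative to the array's 75th percentile) of 1 probe for Trim30b, 2 for Trim30d, 1 for Trim12c and 2 for Pml, by strain and IL-4 exposure; circles and squares are replicates 1 and 2 and the line is their mean. Trim30b goes from -0.30 and 0.13 in C57BL6 mock to -4.42 and -3.88 at 18 h and is not well above background on any Balb/c array.

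Genes of interferon induction and signalling were called lower at 18 h in part, and Socs1 was higher. The list for interferon induction and signalling held 26 symbols, with an older and a newer name for some genes. These stood for 23 genes, and every one had a kept probe, 41 probes in all. At 4 h 0 were lower and 1, Socs1, was higher in each strain. At 18 h 15 probes of 9 genes were lower and Socs1 was higher in C57BL6, where 2.37% of all probes were lower, and 18 probes of 11 genes were lower and Socs1 was higher in Balb/c, where 2.33% were. Among the genes with no call at 18 h in either strain were Irf3, Jak1, Mavs and Tbk1. The median change over the 41 probes at 18 h was -0.86 in C57BL6 and -0.76 in Balb/c. Isg15, a ubiquitin-like protein induced by interferon, fell by 2.15 in C57BL6 and by 2.83 in Balb/c (adjusted p = 0.0307 and 0.00987 by limma). Socs1, the inhibitor of JAK kinases, rose by 5.21 at 4 h and 3.85 at 18 h in C57BL6 and by 4.61 and 3.65 in Balb/c.

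Replicates of a group differed for some members. The median absolute gap between the 2 replicates over the 77 probes was 0.13 to 0.35 in the 6 groups, and 1 to 9 probes a group had a gap over 1. Trim29, on A_51_P409349, had gaps (replicate 2 minus replicate 1) of -1.33, -1.43 and -2.23 in the 3 Balb/c groups and of 0.17, 0.02 and 0.05 in C57BL6. Trim27 on A_52_P601446 had Balb/c values of -1.78 and -0.44 in mock, -1.45 and 0.15 at 4 h, and -1.57 and 0.13 at 18 h, where replicate 2 was higher each time. Where a gene had several probes they did not always share a sign: of the 26 genes with more than 1 probe, all probes had the same sign for 16 and 17 genes at 4 h and 18 h in C57BL6 and for 19 and 22 in Balb/c. All called members kept their direction on every slide that held both groups of a comparison against mock or between the times. Their replicate values did not overlap between the groups, so this outcome was fixed in advance and is no check of a slide effect.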

How the data were processed

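RNA (1 µg) from 12 samples was read on 1-colour Agilent arrays; per the file headers the scans were extracted with Agilent Feature Extraction 9.5.1.1, and the deposited scanner files give an intensity per spot, already background-subtracted by the authors' software. A deposited table of the whole series holds ratios that, over the 21164 probes well above background on all arrays, equalled the scanner signal over the mean of both C57BL6 mock arrays up to a factor per array whose origin is not given in the sources used here; it served as an alternative. Control spots and outlier flags were left out, spots of a probe were averaged, and log2 of the processed intensity was taken minus each array's 75th percentile. Probes well above background on both arrays of a group were kept. limma 3.58.1 (R 4.3.3) fitted 6 group means (6 residual and 2.14 prior degrees of freedom) with Benjamini-Hochberg adjustment over 27373 probes; SEs and p-values measure the spread between 2 samples a group, and the number of arrays limits the precision. The script was tested on simulated data.

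The series describes independent experiments with different littermates, and the replicate numbers were taken to pair samples within a strain. Deviations of same-numbered samples correlated at 0.605, 0.34 and 0.199 in C57BL6 and at 0.53, 0.343 and 0.639 in Balb/c. For the highest values, 0.605 (C57BL6 mock and 4 h) and 0.639 (Balb/c 4 h and 18 h), same-numbered samples also shared a slide. Pairing by experiment and slide cannot be told apart there. Probes were named by the scanner's gene name; other lists used current symbols through RefSeq accessions. The text names up to 8 called Trim probes per direction and comparison whose groups do not overlap, and the brightest probe of each gene in 6 role lists; Trim47, Trim2's pattern, Trim29 and Trim27 were singled out after their values were seen. The members and lists were chosen with earlier results of these data known. Alternatives were normexp (offset 50), quantile and median scaling, no filter, a filter on all 12 arrays, the deposited ratios, 1 probe per gene, replicate and slide blocks, leaving out each array and, added after the data were seen, leaving out slide 2. Lipopolysaccharide, which the protocols mention, is carried by no sample label. 1 gene of the pathway list and a motif named for it are not reported here.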

Additional observations from a re-analysis of the deposited data

How the results depend on the processing

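All called members kept their sign under every alternative in which they were tested, while the counts moved. The replicate block gave the values printed beside the results. Its calls were 22 and 22 for C57BL6 at 4 h and 18 h, 11 and 18 for Balb/c, and 23 between the times. It gave 21 between the strains, where its p-values can be too small because replicates are not paired between strains. The 0 calls for the strain difference of the IL-4 change stayed 0 under it. Normexp gave 0 calls for C57BL6 at 4 h and 18 h and between the times, where 0.095%, 0.552% and 0.581% of all probes were called. It gave 1 each for Balb/c at 18 h and between the strains (0.632% and 0.113% of all probes). It moved the median of all probes to -0.55 in C57BL6 and -0.41 in Balb/c at 18 h. Members at -0.67 and -0.66 are to be read against that. Median scaling gave 1 and 4 for C57BL6 at 4 h and 18 h (1.99% and 2.95% of all probes). Without the filter the counts were 0 and 3 in C57BL6 and 5 between the times (0.991%, 1.55% and 1.22% of all probes). With probes well above background on all 12 arrays, Balb/c at 4 h had 2 (1.72% of all probes). With 1 probe per gene the counts were 2, 4 and 5 (C57BL6 at 4 h and 18 h, Balb/c at 18 h) and 5 between the times. The shares of all probes were 3.36%, 4.46%, 3.83% and 3.72%. Without the 4 arrays of slide 2 some groups hold 1 array, assumed to vary like the others. Fewer probes were then called in C57BL6, at 18 h in Balb/c, between the times and between the strains. This held among all probes as well as among the Trim probes. Leaving out each array gave 0 to 5 and 2 to 6 in C57BL6, 0 to 1 and 5 to 8 in Balb/c, 5 to 8 between the times and 5 to 9 between the strains; in Balb/c at 4 h the 1 call came without 4 h replicate 1 or mock replicate 2. Against mock, calls kept in all 12 of these fits were Trim21 and Trim30a A_51_P275454 at 18 h in both strains and, in Balb/c, Trim30a A_52_P442567 and Trim34a A_52_P278853 and A_52_P367034. Between the times they were Trim21, both Trim30a probes and Trim34a A_52_P278853 and A_52_P367034, and the 5 between the strains are named beside that result. Apart from the smaller numbers of arrays or probes, the cause of these moves was not tested. Quantile scaling, the deposited ratios and the slide block kept all 8 counts within 1.5 times. Dim probes such as Trim66, Trim7 and Trim60 are limited by signal over background.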
